A study of Drosophila melanogaster with 6 samples.

Results

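The proteasome genes of the fly antenna were examined in 6 poly(A) RNA-seq libraries from female *Drosophila melanogaster*, 3 labelled Control and 3 labelled E93RNAi. The genes were taken by FlyBase symbol, as every listed gene named *Rpn*, *Rpt*, *Prosalpha* or *Prosbeta* followed by a number. This gave 48 of the 17698 genes in the count tables. Of these, 32 carry a plain number and are called broadly expressed subunits here, and 16 are paralogs whose symbol ends in R or T, with or without a further number. The R and T paralogs are counterparts of the plain subunits, and several, among them *Prosalpha3T*, *Prosalpha4T1*, *Prosalpha4T2* and *Prosalpha6T*, are known for expression in the male germ line.

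The 26S proteasome degrades proteins that carry ubiquitin. Its core particle is a barrel of stacked rings, with alpha subunits gating the outer rings and beta subunits forming the inner rings, where *Prosbeta1*, *Prosbeta2* and *Prosbeta5* provide the proteolytic sites. The regulatory particle caps the core. Its base holds the Rpt ATPases, which unfold substrates, and non-ATPase subunits that include the ubiquitin receptors Rpn10 and Rpn13, while its lid holds the deubiquitinase Rpn11 and scaffold subunits. Subunits are needed in fixed proportions, and in animals many of the genes are regulated together, in flies by the Cap-n-collar factor encoded by *cnc*.

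Both groups carried *peb*-Gal4, a driver active in olfactory neurons, and UAS-Dcr2, each over a wild-type chromosome. The E93RNAi flies also carried 1 copy of the hairpin construct UAS-E93KK108140 against *Eip93F*, which encodes the ecdysone-induced transcription factor E93, and the Control flies carried 1 copy of the landing-site strain VIE-260B (described as VDRC60100). The genotype text of the labels gives the hairpin to the control and the empty site to E93RNAi, so the sample titles and the knockdown label were followed here. For each pair of replicates 350 females per genotype were reared side by side at 25 °C, and their antennae were collected at an adult age of 2 to 5 days. Whole antennae hold neurons, support cells and glia, whereas the driver acts in part of them, and in such bulk samples fewer cells of a type cannot be told apart from less RNA per cell. The labels call the replicates biological without saying how they were separated, so p-values measure the spread between these samples, which may in part be technical.

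Total gene counts ranged from 16639918 to 18400979 reads per sample. Levels are given as CPM, the counts of a gene relative to its library's total after TMM scaling (the trimmed mean of M-values), and changes as log2 of E93RNAi over Control from a test across 9237 genes, with a Benjamini-Hochberg adjusted p under 0.05 as the threshold. The targeted gene *Eip93F* measured 369.2, 399.6 and 376.7 CPM in Control replicates 1 to 3 and 348.7, 336.4 and 318.6 CPM in E93RNAi replicates 1 to 3, a log2 change of -0.19 ± 0.048 (SE; adjusted p = 0.0119, edgeR). Without Control replicate 2 or without E93RNAi replicate 3 this change was not past the threshold. *Orco*, the odorant co-receptor that marks antennal neurons, was at 3314 ± 53.6 CPM in the 3 Control samples (mean ± SD). The testis list of 10 genes summed to between 6 and 16 counts per library, and 4 of its genes were at 0 in all 6.

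The transcripts of the broadly expressed proteasome subunits were nearly the same in E93RNAi and Control antennae. Of the 48 genes, 32 had enough reads to be tested, 31 broadly expressed subunits and the paralog *Rpn13R*. Of these 32, 1 passed the threshold, *Rpn10*, which was lower in E93RNAi. At an unadjusted p under 0.05 there were 2, *Rpn10* and *Prosalpha5*, and DESeq2 and limma voom each called 1. Across all tested genes 24.3% passed, 10.5% lower and 13.8% higher, and among the 1906 genes with mean counts within the range of the 31 subunits (988 to 2804) 27.5% passed. The samples of the groups did not overlap for 1 of the 32 proteasome genes, again *Rpn10*, against 37.5% of all tested genes. The members share their biology and these 6 samples, so the counts describe the list and were not tested against other lists.

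**Figure D1:**
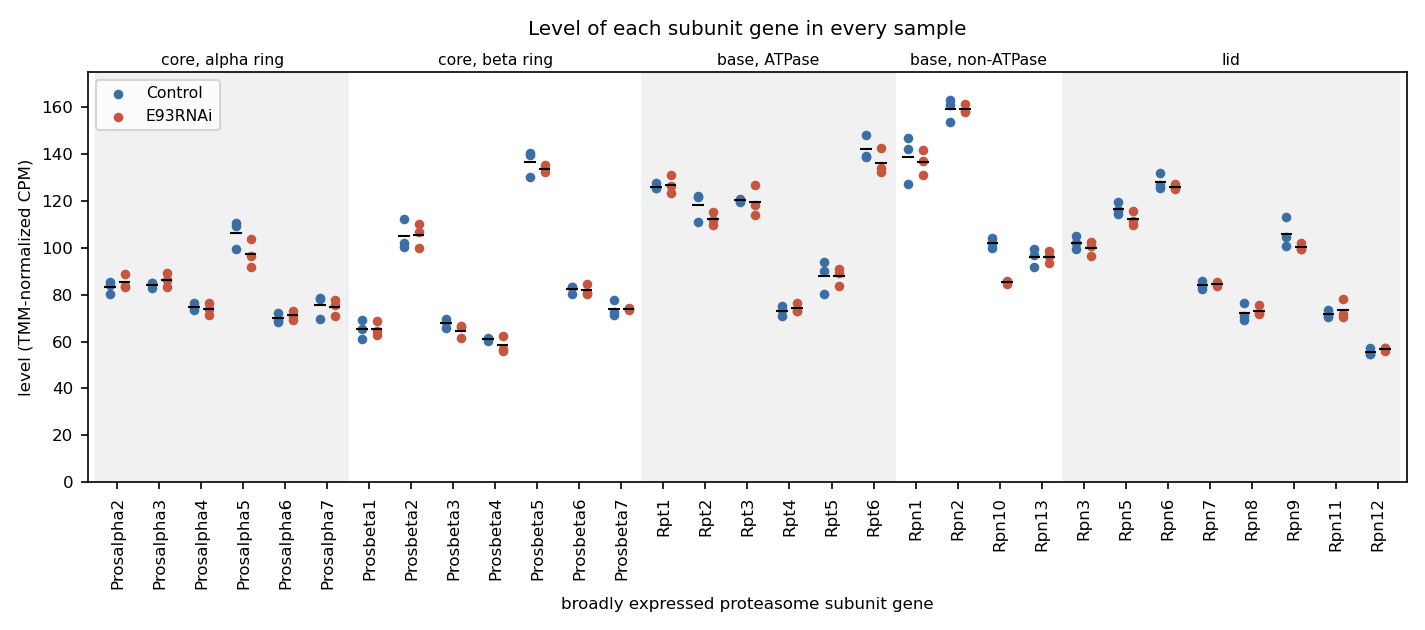
Level in TMM-normalized CPM (linear axis from 0) of the 31 counted broadly expressed subunit genes, with 3 Control samples (blue) and 3 E93RNAi samples (red) per gene and the group mean as a black bar. The groups overlap for every gene shown except *Rpn10*, whose E93RNAi samples lie at 84.6 to 85.8 CPM and whose Control samples lie at 99.8 to 104.1 CPM.

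*Rpn10* (FBgn0015283) encodes a ubiquitin receptor that also exists outside the particle. It lies on arm 3L, plus strand, from 21537000 to 21538582 in the Ensembl annotation of BDGP6.54, and no exon of another annotated gene overlaps its exons. Control libraries 1 to 3 held 1641, 1786 and 1900 of its reads, and E93RNAi libraries 1 to 3 held 1457, 1514 and 1583. In CPM these were 99.8, 102.1 and 104.1 in Control and 85.3, 84.6 and 85.8 in E93RNAi. All 3 E93RNAi samples lay below all 3 Control samples, and the gap between the groups was wider than the range within either. The level fell by 0.26 on the log2 scale (SE 0.040, 95% interval -0.35 to -0.17), which is 16.4% lower (interval 11.2% to 21.4% lower), with an adjusted p of 0.000448 in edgeR's quasi-likelihood test. *Rpn10* made up 3.34%, 3.48% and 3.43% of the summed CPM of the 31 subunits in Control replicates 1 to 3 and 2.93%, 2.93% and 2.86% in E93RNAi replicates 1 to 3. Its place by CPM among the 31 moved from 14 in Control to 18 in E93RNAi.

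Marker genes of other cells moved beside this result. Of 4 olfactory neuron markers, *Orco* (-0.20 log2, adjusted p = 0.00357, edgeR) and *Ir25a* (-0.30 log2, adjusted p = 0.000148, edgeR) fell and *Ir8a* rose (0.46 log2, adjusted p = 1.85e-05, edgeR), while the general neuronal gene *elav* did not pass (-0.07 log2, adjusted p = 0.341, edgeR). The neuron list summed to 4116 to 4251 CPM in Control and 3744 to 3800 CPM in E93RNAi. All 3 support-cell markers rose, from a sum of 15668 to 15776 CPM in Control to 19764 to 21263 CPM in E93RNAi, and both glial markers rose, from sums of 305.0 to 359.0 CPM to sums of 399.2 to 500.1 CPM. *Mhc* rose (adjusted p = 0.0180, edgeR), and the 3 muscle markers summed to 1.14 to 2.92 CPM in Control and to 13.6, 1.45 and 14.4 CPM in E93RNAi replicates 1 to 3. *Rpn10* measured 85.3, 84.6 and 85.8 CPM in the same 3 E93RNAi libraries. Of the 3 haemocyte markers *Pxn* rose (1.47 log2, adjusted p = 0.000252, edgeR). *Hml* and *NimC1* had negative estimates that did not pass (-0.26 and -0.18 log2, adjusted p = 0.256 and 0.681, edgeR). The haemocyte list summed to 22.4 to 26.3 CPM in Control and 29.2 to 39.2 CPM in E93RNAi. The 1 tested fat body marker of 3 did not pass (sums 104.1 to 112.6 CPM in Control and 96.5 to 109.7 CPM in E93RNAi). The 3 tested genes of the female germ line and follicle list were *Yp1*, *Yp2* and *Yp3*, while *vas* and *osk* had too few reads to be tested. *Yp3* rose, although its groups overlapped, and the list summed to 6.33 to 16.8 CPM in Control and 6.68 to 22.8 CPM in E93RNAi. The part of the neuron, support-cell, glial, muscle, haemocyte, fat body and *Yp* gene signals in the *Rpn10* result was not tested.

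The other 30 counted subunits had log2 changes between -0.13 and 0.04, and 29 of these estimates lay within 0.1 of 0. Their 95% intervals together ran from -0.25 to 0.15, so that the widest bounds were 15.9% lower and 10.7% higher. The median log2 change of the 31 subunits was -0.0054, beside 0.00028 for all tested genes. The median absolute log2 change was 0.025 for the 31 subunits, 0.110 for all tested genes and 0.079 for the 1906 genes of like count. Summed over the 31 subunits, the level came to 2986 ± 50.4 CPM for Control samples (range 2936 to 3037) and 2933 ± 60.0 CPM for E93RNAi samples (range 2884 to 3000; SD, n = 3 each). The groups of summed levels overlapped, and the subunits took 0.296% of all gene counts in either group.

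**Figure D2:**
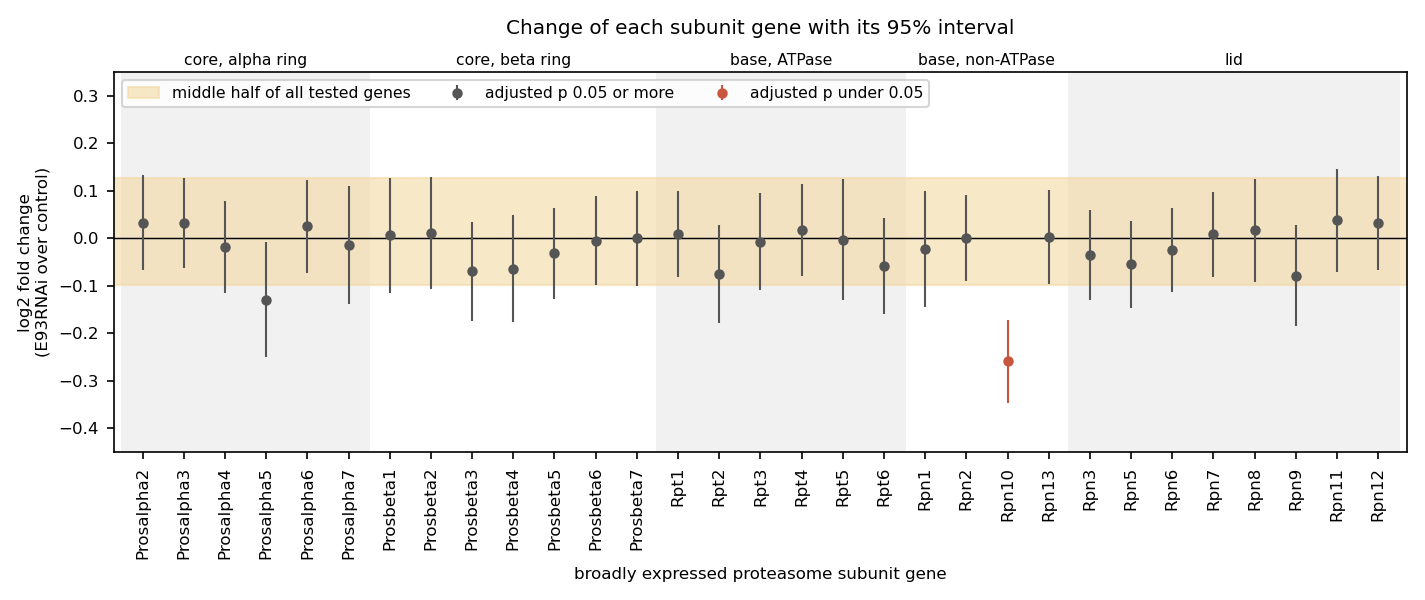
Log2 fold change of E93RNAi over Control for the 31 counted broadly expressed subunit genes, with 95% intervals from the quasi-likelihood fit; the shaded band holds the middle 50% of all 9237 tested genes, from -0.10 to 0.13. All subunits but *Prosalpha5* and *Rpn10* have estimates inside the band, and *Rpn10* (red) passes the threshold.

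In the alpha ring, 6 of 7 genes could be measured and none passed the threshold, with log2 changes from -0.13 to 0.03. *Prosalpha5* had the lowest estimate. It measured 110.4, 99.5 and 109.3 CPM in Control replicates 1 to 3 and 91.8, 96.4 and 103.6 CPM in E93RNAi replicates 1 to 3. Control replicate 2 fell within the E93RNAi range, and the log2 change was -0.13 ± 0.056 (SE; adjusted p = 0.124, edgeR). It passed in 1 of 15 alternatives, without Control replicate 2, at -0.18 with an adjusted p of 0.0469 in edgeR. Leaving out E93RNAi replicate 3 gave -0.18 (adjusted p = 0.0532, edgeR). Without E93RNAi replicate 1 the estimate was -0.09 (adjusted p = 0.299, edgeR), and without Control replicate 1 it was -0.10 (adjusted p = 0.278, edgeR). *Prosalpha2* and *Prosalpha3* both had estimates of 0.03, *Prosalpha6* 0.03, *Prosalpha4* -0.02 and *Prosalpha7* -0.01, all as log2 changes with adjusted p-values of 0.654 or more in edgeR.

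*Prosalpha1*, the remaining alpha subunit, was listed at 0 counts in all 6 libraries, as was *Prosalpha1R*. The genes of the pair lie on the same strand of the same arm, with starts 3110 bases apart, and both have coding exons of 76, 177 and 479 bases. Reads that align to several places were tallied apart from genes and made up 8.47% to 8.85% of the listed reads per library. Whether reads of this pair are among them was not tested, as no genome sequence was used, and no level is given for either gene.

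In the beta ring all 7 genes were counted and none passed. *Prosbeta1*, which gives the caspase-like site, measured 65.3, 61.2 and 69.0 CPM in Control replicates 1 to 3 and 62.95, 64.6 and 68.8 CPM in E93RNAi replicates 1 to 3. *Prosbeta2*, the trypsin-like subunit, measured 112.2, 100.5 and 102.0 CPM in Control and 110.3, 100.0 and 106.7 CPM in E93RNAi. *Prosbeta5*, the chymotrypsin-like subunit, measured 140.5, 130.2 and 139.7 CPM in Control and 134.0, 132.2 and 135.3 CPM in E93RNAi. For each of the proteolytic subunits the samples of the groups were interleaved. The log2 changes were 0.01 (95% interval -0.11 to 0.13) for *Prosbeta1*, 0.01 (-0.11 to 0.13) for *Prosbeta2* and -0.03 (-0.13 to 0.06) for *Prosbeta5*, with adjusted p-values of 0.956, 0.915 and 0.669 in edgeR. Among the structural beta subunits *Prosbeta3* and *Prosbeta4* had estimates of -0.07 and -0.06, and *Prosbeta6* and *Prosbeta7* were within 0.01 of 0.

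None of the 6 Rpt ATPases passed, and their log2 changes ran from -0.07 for *Rpt2* to 0.02 for *Rpt4*. *Rpt3* was at 119.7, 121.0 and 119.9 CPM in Control and 118.3, 113.9 and 126.7 CPM in E93RNAi replicates 1 to 3, with an SD of 0.725 CPM in Control and 6.48 CPM in E93RNAi. The non-ATPase base subunits other than *Rpn10* are the scaffolds *Rpn1* and *Rpn2* and the second ubiquitin receptor *Rpn13*. *Rpn13* measured 96.8, 91.6 and 99.3 CPM in Control and 96.6, 93.5 and 98.5 CPM in E93RNAi, so the samples overlapped throughout. Its log2 change was 0.0037 ± 0.045 (SE; 95% interval -0.10 to 0.10; adjusted p = 0.968, edgeR). *Rpn1* had -0.02 (interval -0.14 to 0.10) and *Rpn2* 0.00046 (-0.09 to 0.09). The *Rpn10* interval, -0.35 to -0.17, did not overlap those of the other 3 base non-ATPase genes, but the difference between genes was not itself tested.

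Among the 8 lid subunits taken by symbol none passed, with log2 changes between -0.08 for *Rpn9* and 0.04 for *Rpn11*, the deubiquitinase gene. *Rpn11* measured 70.9, 70.6 and 73.4 CPM in Control and 70.6, 71.8 and 78.3 CPM in E93RNAi replicates 1 to 3. E93RNAi replicate 3 was the highest and E93RNAi replicate 1 the lowest of its 6 samples, so the groups overlapped. *Rpn12* had the lowest CPM of the 31 subunits, 55.5 ± 1.43 in Control and 56.8 ± 0.780 in E93RNAi (SD, n = 3).

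Differences between replicates were small. Replicate 2 was the lowest sample of its group for 17 of 31 subunits in Control and for 17 of 31 in E93RNAi, and replicate 3 was the highest for 16 and 21. The median log2 deviation from the group mean was -0.023 in replicate 2 of both groups and 0.033 and 0.037 in replicate 3 of Control and E93RNAi. The coefficient of variation over the Control samples had a median of 2.86% for the 31 subunits, from 0.603% for *Rpt3* to 7.89% for *Rpt5*, beside 3.61% for genes of like count.

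Levels can be set against each other between genes only per length. In Control, CPM per kb of annotated exon ran from 45.6 for *Rpn1* to 120.1 for *Prosbeta5*, a 2.63-fold span, with a median of 65.9. The SD over the 31 genes of the log2 level per kb was 0.368, against 2.43 over 9158 tested genes, whose median was 13.95 CPM per kb. The lowest of the 31 subunits was above 82.5% of these genes. *Prosbeta5* ranked first of the 31 in every library, at 114.3 to 123.4 CPM per kb in Control and 116.0 to 118.8 in E93RNAi. Next came *Prosalpha5* (112.6 CPM per kb in Control) and then *Prosbeta2* (101.4), *Rpt6* (101.1) and *Prosalpha2* (90.5). *Prosbeta2* was at 97.2 to 108.5 CPM per kb and *Prosbeta1* at 71.8 to 81.0 in Control, and the order *Prosbeta5*, *Prosbeta2*, *Prosbeta1* held in 6 of 6 libraries without overlap of their ranges. *Prosalpha5* (105.3 to 116.8 in Control) overlapped *Prosbeta5*, and *Prosbeta2* and *Rpt6* differed by less than their spread.

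By subcomplex, the Control levels per kb spanned 63.7 to 112.6 in the alpha ring, 60.9 to 120.1 in the beta ring, 49.99 to 101.1 among the ATPases, 45.6 to 71.7 among the other base genes and 47.2 to 65.9 in the lid. The lid was the narrowest, with an SD of 0.148 on the log2 scale, against 0.305 to 0.384 in the other subcomplexes. *Rpn1* and *Rpn2*, the genes of longest exon length, took the places 29 to 31 in every library. Exon length here is the union over annotated transcripts, so a gene with alternative ends can be placed too low on this scale. Exons of 12 of the 31 genes overlap a gene on the opposite strand, at most 12.96% of the exon length (*Rpt6*), and none overlaps a gene on the same strand, and the strand setting of the counting is not given in the sources used here.

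The R and T paralogs were barely detected in antennae of either group. Of the 16, 6 were at 0 in all libraries (*Prosalpha1R*, *Prosalpha3T*, *Prosalpha4T1*, *Prosbeta4R2*, *Prosbeta5R1* and *Rpt4R*), and 11 never exceeded 3 counts. Summed over the 16 genes, the counts were 39, 28 and 42 in Control replicates 1 to 3 and 36, 32 and 35 in E93RNAi replicates 1 to 3. The E93RNAi sums lay within the Control range. A count of 3, taken as the floor, corresponds to 0.163 to 0.182 CPM per library. Below it a difference between groups was not detectable at this depth, and such floors cover counting error only. The plain subunit of the same number was at least 296-fold higher per kb than its paralog for each of the 10 counted pairs with a paralog at or under the floor, rising to at least 1023-fold for *Prosbeta5* over *Prosbeta5R2*, with 3 counts per library as the floor.

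**Figure D3:**
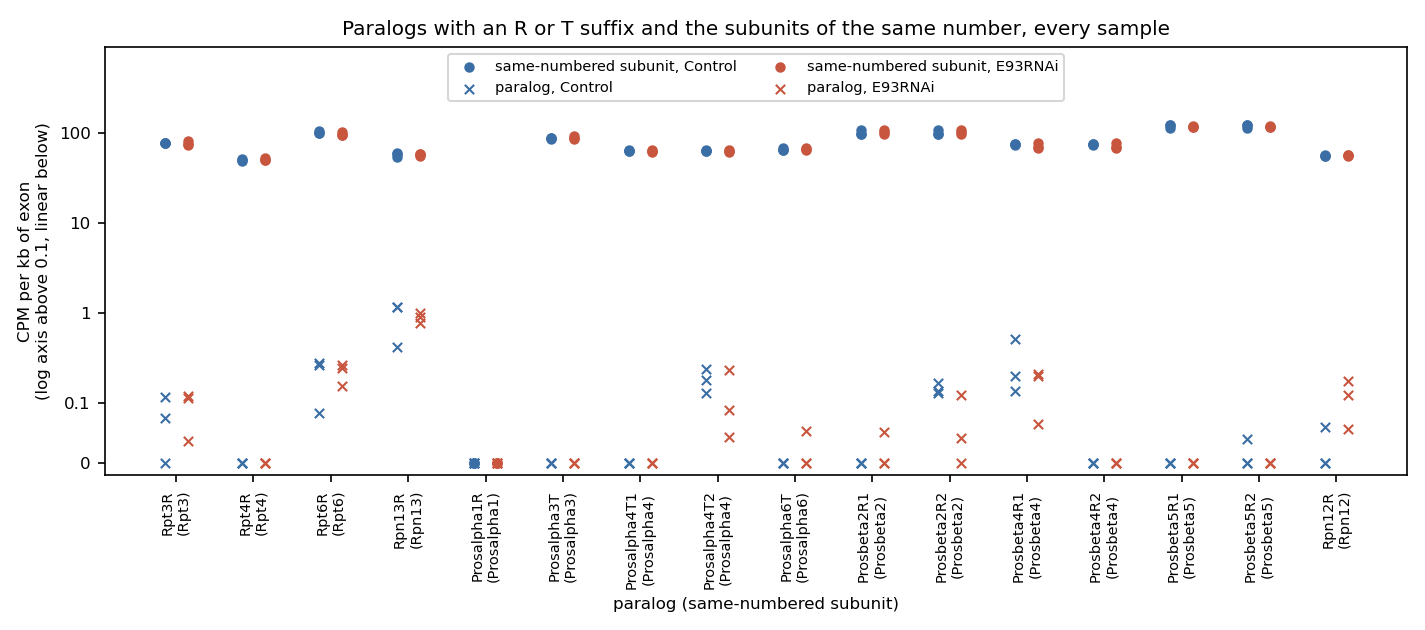
CPM per kb of exon for each of the 16 paralogs (crosses) and the plain subunit of the same number (dots) in every Control (blue) and E93RNAi (red) sample, on an axis that is logarithmic above 0.1 and linear below. The counted plain subunits lie far above their paralogs, which lie near or below 1, with both genes of the *Prosalpha1* pair at 0.

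*Rpn13R*, the counterpart of the ubiquitin receptor gene *Rpn13*, was the 1 paralog with a mean of at least 10 counts. Its reads numbered 21, 8 and 23 in Control libraries 1 to 3, against 17, 15 and 20 in E93RNAi libraries 1 to 3. The E93RNAi counts lay between the lowest and highest Control counts, and Control replicate 2 was the lowest sample of all. Per kb, *Rpn13R* stood at 1.58% ± 0.706 of *Rpn13* in Control and 1.55% ± 0.160 in E93RNAi (SD, n = 3). The log2 ratio of *Rpn13R* to *Rpn13* differed by 0.09 between the groups (exact permutation test, two-sided, p = 1, where 3 samples against 3 allow no p below 0.1; 1 pair tested). In the fit across all genes its log2 change was -0.03 with a 95% interval of -0.82 to 0.75, so changes of the size seen for *Rpn10* could not be resolved. Of the remaining paralogs, *Rpt6R* was read 2, 7 and 7 times in Control samples, then 6, 4 and 7 times in E93RNAi samples, *Prosbeta4R1* had 7, 2 and 3 and then 3, 3 and 1, and *Prosalpha4T2* had 5, 4 and 3 and then 5, 2 and 1. *Prosbeta2R2* reached 4 counts, and no other paralog passed 3. In counts, the groups of each of these genes overlapped or shared a value. In CPM the E93RNAi samples of *Prosbeta2R2* all lay below its Control samples, at counts near or under the floor.

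The genes around the proteasome were read from lists of 35 names, of which 33 were matched and 32 were tested. Of these, 2 rose and 1 fell at the threshold, against 13.8% and 10.5% of all tested genes, and the median log2 change was 0.03. None of 5 tested genes on the list of assembly factors and regulators passed. Among them were *Pomp*, the core maturation factor (-0.08 log2, adjusted p = 0.198, edgeR), and *REG*, the nuclear activator cap (0.09 log2, adjusted p = 0.178, edgeR). The list also held *Sem1*, a lid component whose symbol falls outside the naming rule used here (-0.11 log2, adjusted p = 0.378, edgeR). None of 6 shuttle receptors and deubiquitinases passed. The lowest unadjusted p there was 0.0153 for *rngo*, which encodes a shuttle receptor (0.14 log2, adjusted p = 0.0601, edgeR), and *rngo* passed with library totals in place of TMM scaling and when E93RNAi replicate 2 was left out. The COP9 signalosome is a complex built like the lid, and none of its 8 tested genes passed, although 2 had an unadjusted p under 0.05 in edgeR, *alien* (-0.12 log2, adjusted p = 0.0836, and past the threshold without Control replicate 2) and *CSN4* (0.15 log2, adjusted p = 0.0851).

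Of 5 genes for ubiquitin and its activating enzyme, 1 rose. *Ubi-p63E*, a polyubiquitin gene, measured 333.0, 341.0 and 340.1 CPM in Control replicates 1 to 3 and 474.2, 498.4 and 458.7 CPM in E93RNAi replicates 1 to 3. The lowest E93RNAi sample was well above the highest Control sample, and the log2 change was 0.50 ± 0.044 (SE; adjusted p = 4.23e-06, edgeR). The second polyubiquitin gene, *Ubi-p5E*, had an estimate of 0.03 (adjusted p = 0.670, edgeR). Ubiquitin repeats are near copies of one another, so the division of reads within and between these genes is uncertain. *RpL40*, which encodes ubiquitin fused to a ribosomal protein, measured 489.7, 419.8 and 457.2 CPM in Control and 428.6, 356.4 and 403.8 CPM in E93RNAi, lower in 3 of 3 same-numbered pairs although the groups overlapped. Its log2 change was -0.20 (adjusted p = 0.0565, edgeR). It passed in 6 of 15 alternatives, which were DESeq2 (adjusted p = 0.0165), no filter on low counts (0.00851, edgeR), leaving out Control replicate 2, E93RNAi replicate 1 or replicate 1 of both groups, and the replicate number as a block (-0.20, adjusted p = 0.00172, edgeR). *Uba1*, the activating enzyme, had an estimate of 0.06 (adjusted p = 0.368, edgeR).

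Of 3 genes that regulate proteasome gene transcription, 1 fell. *Keap1* encodes the adaptor that holds the Cap-n-collar factor in check. It measured 74.1, 73.4 and 72.4 CPM in Control replicates 1 to 3 and 56.7, 54.4 and 57.3 CPM in E93RNAi replicates 1 to 3. The groups were far apart beside a range of under 3 CPM within each, and the level fell by 0.38 on the log2 scale (SE 0.044; adjusted p = 3.56e-05, edgeR). *cnc* itself was at 514.8 ± 25.8 and 504.1 ± 12.9 CPM (SD, n = 3; log2 change -0.03, adjusted p = 0.711, edgeR), and its partner *maf-S* had an estimate of -0.02 (adjusted p = 0.893, edgeR).

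Of 5 tested genes of the segregase that extracts ubiquitinated proteins, *Npl4*, a cofactor that binds ubiquitin, rose. It measured 65.9, 72.8 and 69.1 CPM in Control and 74.7, 78.4 and 84.8 CPM in E93RNAi replicates 1 to 3. The highest Control and the lowest E93RNAi sample were 72.8 and 74.7 CPM, and the log2 change was 0.20 ± 0.056 (SE; adjusted p = 0.0231, edgeR). Leaving out Control replicate 1, Control replicate 3 or E93RNAi replicate 3 ended the call, with adjusted p-values of 0.0834, 0.0796 and 0.107 in edgeR.

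**Figure D4:**
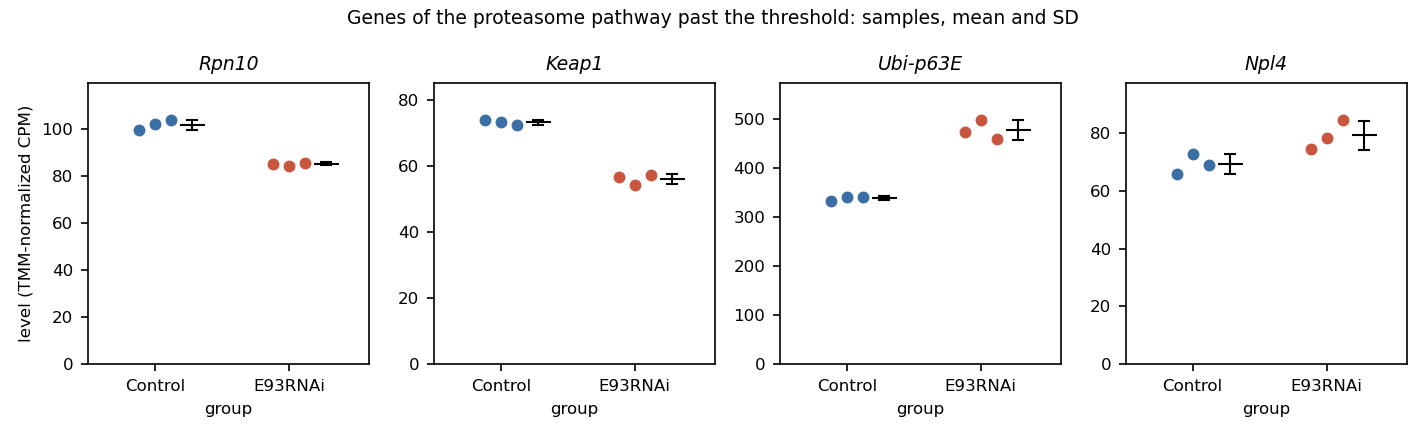
TMM-normalized CPM (linear axes from 0) of the 4 genes of the proteasome and the surrounding lists that passed the threshold, with each Control (blue) and E93RNAi (red) sample as a point and the mean ± SD in black. *Rpn10* and *Keap1* are lower and *Ubi-p63E* and *Npl4* higher in E93RNAi, without overlap of samples.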

How the data were processed

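Per the labels' protocols, total RNA (100 ng) was poly(A)-selected and made into directional libraries. The submitters' processing notes name cutadapt 1.8, STAR 2.5.3a, HTSeq 0.9.1 and build BDGP6, without settings. The deposited files hold raw counts per gene for 17698 identifiers plus 5 summary lines (13.1% to 13.8% of the listed reads), which were left out. Symbols were found for 17560 identifiers, and exon lengths were taken from the Ensembl annotation of BDGP6.54 for all 48 members.

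Genes were kept by filterByExpr, TMM-scaled and compared by edgeR's quasi-likelihood test with group as the only term (edgeR 4.0.16, limma 3.58.1, DESeq2 1.42.0, R 4.3.3), with p-values adjusted over all 9237 genes. Intervals cover 95%. The R and T paralogs were compared with the plain subunit of the same number by an exact permutation test of log2((count + 0.5)/(count + 0.5)) where the paralog had a mean of at least 10 counts. Levels were named for called genes, proteolytic subunits and that paralog pair, and a few further genes were chosen after their values were seen. Members and lists were chosen with earlier results of these data known. *TER94* and *Ecm29* were not matched and are not analysed here.

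The labels speak of pairs of replicates, and deviations from the group mean correlated between samples of equal number (0.150, 0.127 and 0.122 for numbers 1 to 3, over 8103 genes averaging 50 counts or more). Correlations between samples of unequal number were not computed for comparison. The main fit did not pair the samples, and the replicate number entered as a block only as an alternative. Alternatives were other scalings, DESeq2, limma voom, other filters, a stricter threshold, the replicate block and leaving out each sample.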

Additional observations from a re-analysis of the deposited data

How the results depend on the processing

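*Rpn10* was called in all 15 alternatives, with log2 changes from -0.28 to -0.23 and adjusted p-values from 6.71e-05 to 0.00453. It was the 1 proteasome gene called in every fit, joined in the fit without Control replicate 2 by *Prosalpha5*, so that leaving out samples gave 1 to 2 called subunits. The median log2 change of the tested members ranged from -0.033 to 0.021 over 14 alternatives, and without replicate 1 of both groups, an alternative chosen after seeing the data, it was -0.013. Over all genes, 2248 calls became 1482 at an adjusted p under 0.01 and 1711 to 2216 when samples were left out. The replicate block gave 2430 calls and the same 1 subunit, and changed no other call among the named genes than that of *RpL40*. The *Rpn13R* to *Rpn13* log2 ratio differed by -0.35 to 0.32 between the groups when single samples were left out (exact permutation p from 0.2 to 1), and by 0.09 in the replicate block. *Npl4* was not past the threshold in 4 of its 15 alternatives and *Eip93F* in 3, in each case at the stricter threshold and when certain samples were left out, where the cause was not tested. Depth limits the paralogs, where 15 of 16 had at most 7 counts in any library.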

Other observations

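Enzymes upstream of the proteasome were tallied from 2 further lists, drawn up after the values of these data were known. Cullins with their RING and Skp partners set up the scaffold ligases that mark substrates, and none of 9 tested genes passed the threshold, with *Cul1* at -0.02 and *Cul3* at -0.07 on the log2 scale (adjusted p = 0.829 and 0.212, edgeR). Their lowest unadjusted p was 0.0503 in edgeR, for *SkpA* at -0.11 log2 (adjusted p = 0.149). Of 14 Usp deubiquitinases 1 fell and 1 rose. Over all tested genes 24.3% passed, 10.5% lower and 13.8% higher, so neither list held more than that share. *Usp2* went from 218.2 ± 3.32 to 195.6 ± 6.08 CPM (-0.16 log2, adjusted p = 0.0146, edgeR) and *Usp16-45* from 40.0 ± 1.24 to 45.6 ± 1.16 CPM (0.19 log2, adjusted p = 0.0175, edgeR), each with all 3 E93RNAi samples on one side of all 3 Control samples.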
